A study of Mus musculus with 28 samples.

Results

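Kidneys of uninephrectomized (Unx) db/db mice, which had 1 kidney left after surgery, were compared with kidneys of intact db/m mice at 2 ages, and the results below are about how that difference between strains changed between 26 and 35 weeks. The quantity is the interaction, the log2 difference between db/db Unx and db/m at 35 weeks minus the same difference at 26 weeks. It was computed for all 13495 of 14845 genes whose value reached 1 in at least 5 libraries, and 74 of them passed the test. The libraries came from male mice: db/db Unx at 35 weeks (n = 5), db/db Unx at 26 weeks (n = 12), db/m intact at 35 weeks (n = 6) and db/m intact at 26 weeks (n = 5). The db/db mouse carries a mutation of the leptin receptor gene Lepr and becomes obese and diabetic, and db/m mice are its usual lean controls. Surgery was done in db/db and not in db/m animals, so strain and surgery cannot be told apart, and their joint difference is called the disease effect. Libraries were treated as separate animals, on which the labels are silent. Batches are not labelled either, so age and any batch that goes with it cannot be told apart.

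In diabetic kidney disease, filtration of excess glucose and protein burdens the proximal tubule, and removal of a kidney adds to the load of the nephrons that remain. Injured tubule cells lose transporter expression and can express chemokines and adhesion molecules. Macrophages are recruited by these signals, and interferon and NF-kB signalling raise the genes by which cells process and present antigens.

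Estimated depth was 27.5 ± 3.41 M counts (SD) in db/db Unx at 35 weeks, 24.8 ± 1.84 M in db/db Unx at 26 weeks, 25.0 ± 3.29 M in db/m at 35 weeks and 24.6 ± 2.13 M in db/m at 26 weeks. All 22 proximal tubule markers were measured in the table, with summed values between 22484 and 37235 over the 28 libraries, and none of them at 0 in any library. Lepr read 0.723, 0.675, 0.453, 1.27 and 0.0364 in db/db Unx libraries at 35 weeks and between 0.071 and 1.68 (median 0.704, n = 12) at 26 weeks. It read between 0.799 and 4.7 (median 1.9, n = 6) in db/m libraries at 35 weeks and 0.703, 0.65, 0.52, 0.293 and 0.247 at 26 weeks, and its interaction of -1.12 ± 0.32 did not pass the test (adjusted p = 0.0894). The deposited gene-level value does not separate the receptor's isoforms, so Lepr is no check of the genotype. Within db/db Unx at 35 weeks, replicate 03 was highest and replicate 02 lowest for the MHC and interferon genes, and among db/m at 26 weeks replicate 04 was highest for them. Some results that rest on these libraries are given with and without them. Without replicate 03 of db/db Unx at 35 weeks, 31 of the 74 genes still passed the test. Aif1, Nfkbia, Cxcl16, Ccl2, Psme1, Il15 and Syk were among those that did not.

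The disease effect was higher at 35 weeks than at 26 weeks for 53 genes (0.393% of the genes tested) and lower for 21 genes (0.156%). Together these 74 genes were 0.548% of the genes tested, a small share beside the 32.3% of genes called between the strains at 35 weeks and the 34.9% called at 26 weeks. At an unadjusted p below 0.05 the interaction held 1699 genes (12.6%), of which 887 were higher and 812 lower. The median interaction over all genes was -0.00458 on the log2 scale, and the median over the 53 higher genes was 0.99 and over the 21 lower genes -0.63. The change was at least 2-fold for 25 of the higher and 3 of the lower genes. On either side of the adjusted p threshold of 0.05, just inside lay Aldh7a1, Slc43a3 and Bcl2l1, with adjusted p between 0.0475 and 0.0479, and just outside it lay F2r, H2-Q2 and Cnih4, all at 0.0514. All 74 kept their direction when any 1 library was left out, but the number of calls depended on single libraries. It fell to 7 without db/db Unx 35 weeks 05, 36 without 03 and 40 without 06, and rose to 122 without 01 and 249 without 02. Among db/m libraries it was 14 without 26 weeks 02, 30 without 26 weeks 04, 37 without 26 weeks 05, 32 without 35 weeks 02, 37 without 35 weeks 03, and 46 without 35 weeks 01 or 04. Among db/db Unx libraries of 26 weeks it was 46 without 08, 48 without 03, and 49 without 06, 07 or 09, but 98 without 01 and 89 without 12. It also rose, to 80, without db/m 26 weeks 01. Tgfbi, Lgals3, Slc4a1, C1qa, Patz1 and Mgp were called in all 28 such fits.

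Which group moved with age was read from the age comparison of each strain, 35 minus 26 weeks. Of all genes tested, 11.3% changed with age in db/db Unx (5.16% rose and 6.14% fell), and 7.4% changed in db/m (2.73% rose and 4.68% fell). Of the 53 higher genes, 43 rose with age in db/db Unx while their change in db/m did not pass the test. Another 4 (Tgfbi, Mgp, Ly6a and Pon2) rose in db/db Unx and fell in db/m, and 6 (Cstb, Rab29, Ppfia4, Gm8430, Txn1 and Atpif1) fell in db/m while db/db Unx did not pass. Of the 21 lower genes, 12 fell with age in db/db Unx and did not pass in db/m, and 5 (A930004D18Rik, Larp4b, Ndrg1, Ahcyl2 and Kti12) rose in db/m and did not pass in db/db Unx. Patz1, Slc7a8 and Aldh9a1 fell in db/db Unx and rose in db/m, and Smim5 fell in both. The age comparisons are the parts of the interaction, so these classes describe the 74 genes and are no test of their own. A change that did not pass is not an absence of change. The median standard error of the age difference was 0.112 in db/db Unx and 0.128 in db/m, so db/m changes passed less easily.

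**Figure D1:**
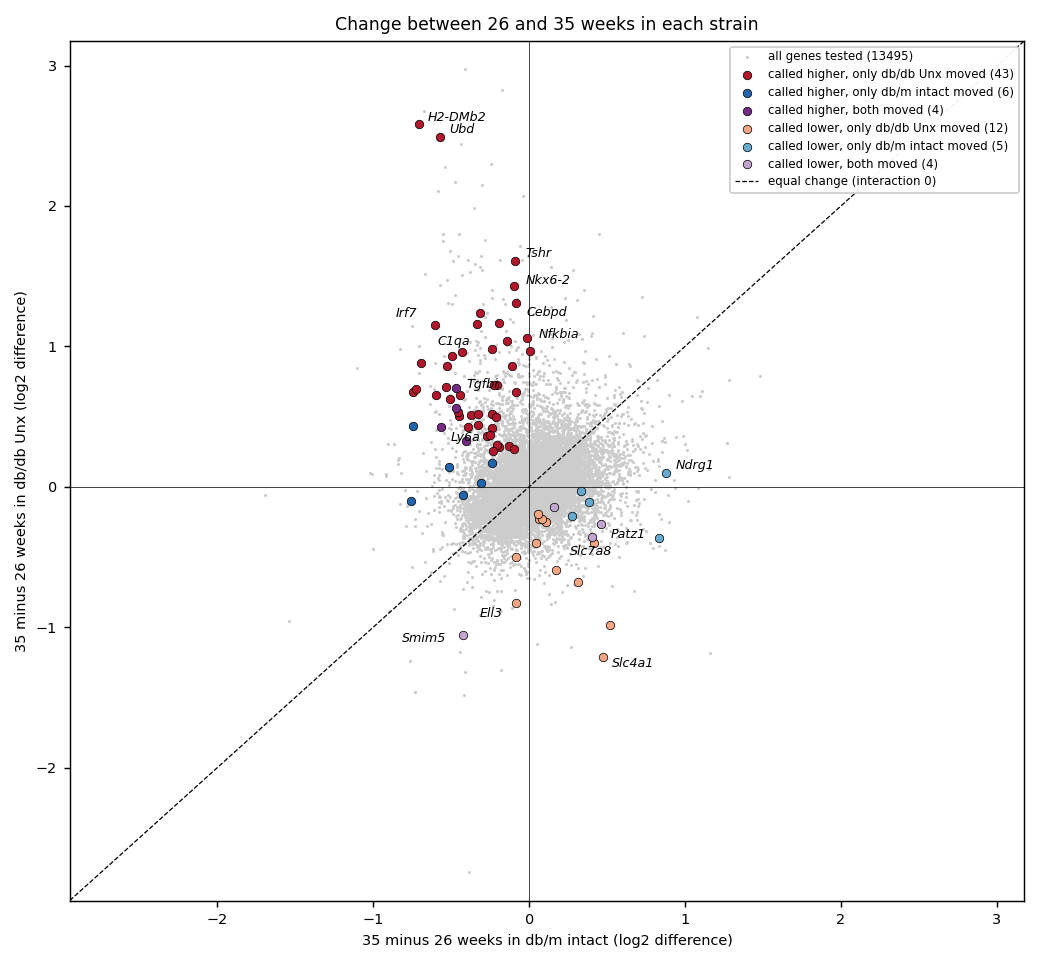
Each point is a gene, with its 35 minus 26 weeks difference in db/m intact kidneys on the x axis and in db/db Unx kidneys on the y axis (log2 scale); coloured points are the 74 genes called in the interaction, by the group that moved. The 53 higher genes lie above the dashed line of equal change, mostly left of 0 on the x axis, and Slc4a1 lies farthest below it among the 21 lower genes.

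By test, 7 of the 74 genes changed in opposite directions in the strains. By sign alone, which a choice on the interaction favours, the ages differed in opposite directions in the strains for 50 of the 53 higher genes and for 17 of the 21 lower genes. Among the higher genes, the median age difference was 0.65 in db/db Unx and -0.33 in db/m on the log2 scale. Among the lower genes it was -0.36 in db/db Unx and 0.28 in db/m. The db/db Unx part was the larger one for 43 of the 53 higher genes and for 12 of the 21 lower genes. These are not the same sets as the genes called with age in db/db Unx alone. Syk and Acap1 were called there alone although their db/m part was the larger. The db/m part was of opposite sign and over 50% of the db/db Unx part for 30 of the 53 higher and 9 of the 21 lower genes. Libraries of the 2 ages did not overlap in db/db Unx for 12 of the 74 genes (1.34% of all genes), with Tnfrsf12a, Plekhf1, Nkx6-2, Anxa5, Tshr and Egr1 above, and Slc4a1, Ell3, Susd2, Smim5, Ass1 and Abhd18 below. In db/m they did not overlap for 21 of the 74 (4.99% of all genes). The choice on the interaction favours such gaps between ages too, so these counts are a description and lend the calls no support.

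Seen by age instead, the disease effect passed the test at 35 weeks and not at 26 weeks for 27 of the higher genes, and at both ages in the same upward direction for 7 (Lgals3, Tnfrsf12a, Rtn4, Nkx6-2, Cstb, Tshr and Selenow). For 12 higher genes the disease effect was a deficit at 26 weeks that was not called at 35 weeks, among them Tgfbi, Ly6a, Ly6e and Aif1. C1qa, Plekhf1, Irf7, Fyb, Prkcb and Syk were higher in db/db Unx at 35 weeks and lower at 26 weeks, both called. Among the lower genes, 10 passed only at 35 weeks, where db/db Unx was lower, and 4 (Patz1, Ndrg1, Slc7a8 and Aldh7a1) only at 26 weeks, where db/db Unx was higher. Slc4a1, Ell3 and A930004D18Rik were lower in db/db Unx at 35 weeks and higher at 26 weeks, both called. These 3 and the 6 before them were among 12 genes in the whole table whose disease effects were called at both ages with opposite signs. Susd2, Ass1, Slc34a1 and Fcamr were lower at both ages and more so at 35 weeks.

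**Figure D2:**
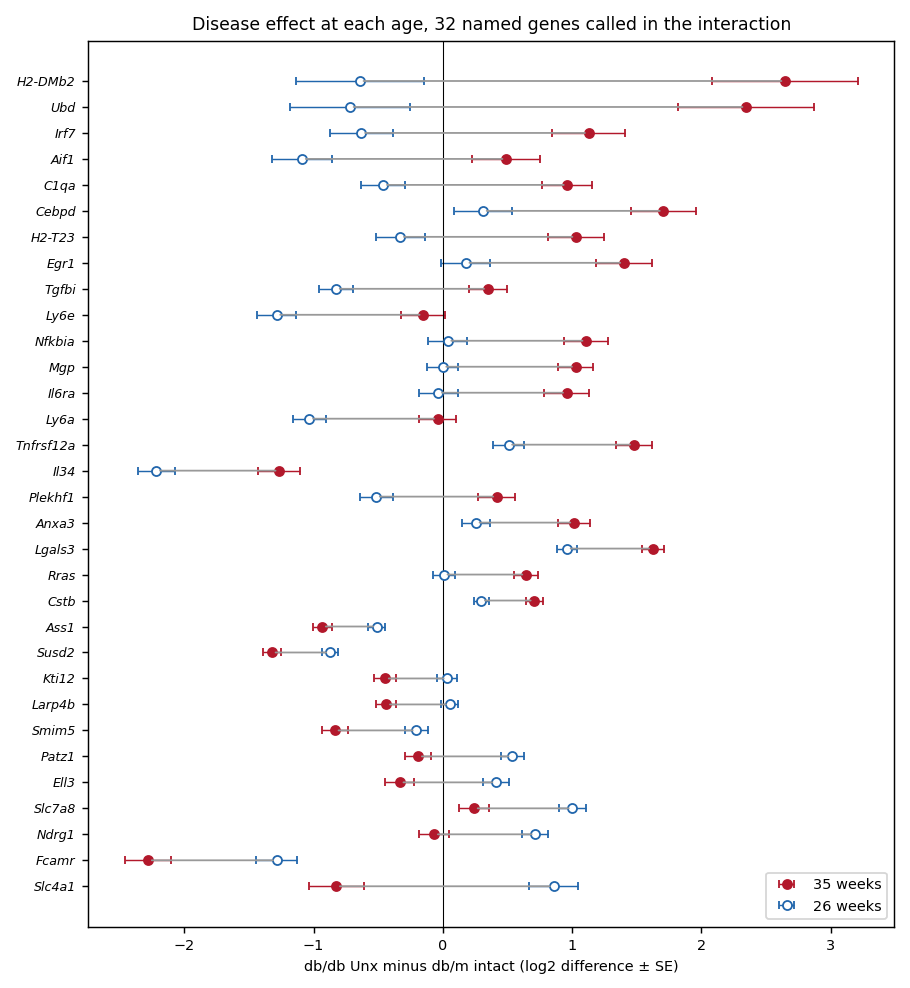
Disease effect, db/db Unx minus db/m intact (log2 difference ± SE), at 35 weeks (filled) and 26 weeks (open) for the 32 named genes called in the interaction, one gene per row. The effect crosses 0 between the ages for genes such as Tgfbi, C1qa and Slc4a1, and grows without a change of sign for Lgals3 and Tnfrsf12a.

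Genes of matrix and of the injured tubule are described first. Tgfbi (chr13:56609523-56639562 of GRCm38, + strand) encodes a matrix protein that transforming growth factor beta induces. In the db/db Unx kidneys Tgfbi read 14.4, 10.5, 25.8, 17.5 and 16.2 at 35 weeks and between 7.13 and 12.4 (median 9.41, n = 12) at 26 weeks. In the db/m kidneys it read between 11.4 and 15.4 (median 11.9, n = 6) at 35 weeks and 17.2, 17.2, 19.6, 15.7 and 19.3 at 26 weeks. The db/db Unx values at 35 weeks overlapped those of 26 weeks only at the lowest library, while the db/m ages did not overlap and ran the other way. Its interaction was 1.17 ± 0.19 (adjusted p = 0.00711), made of 0.70 ± 0.13 in db/db Unx and -0.47 ± 0.15 in db/m. The disease effect on Tgfbi was 0.35 ± 0.15 at 35 weeks (adjusted p = 0.0671) and -0.83 ± 0.13 at 26 weeks (adjusted p = 2.63e-06), so a deficit at the earlier age was no longer called at the later one.

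Lgals3 encodes galectin-3, a sugar-binding protein of macrophages and injured epithelium. Lgals3 stood at 93.9, 104, 108, 115 and 127 in db/db Unx libraries at 35 weeks and between 65.3 and 97.3 (median 79, n = 12) at 26 weeks. For db/m the libraries held between 30.3 and 37.2 (median 35.8, n = 6) at 35 weeks and 36.5, 43.6, 40.4, 43.5 and 42.2 at 26 weeks. Every db/db Unx library lay above every db/m library at both ages. The disease effect was 1.62 ± 0.09 at 35 weeks and 0.96 ± 0.08 at 26 weeks, and the interaction was 0.66 ± 0.11 (adjusted p = 0.00711). Mgp, matrix Gla protein, an inhibitor of soft tissue calcification, had an interaction of 1.03 ± 0.18 (adjusted p = 0.01). The 5 db/db Unx libraries of 35 weeks gave 109.5, 76, 78.8, 116 and 102 for Mgp, and those of 26 weeks lay between 45.7 and 85.5 (median 63.2, n = 12). In db/m they lay between 36.9 and 61.9 (median 45.2, n = 6) at 35 weeks and gave 61, 55.4, 63.6, 67.7 and 74.4 at 26 weeks. At 35 weeks the strains did not overlap (disease effect 1.03 ± 0.14), and at 26 weeks they overlapped and the difference was not called (adjusted p = 0.997). Mgp rose with age in db/db Unx (0.56 ± 0.12) and fell in db/m (-0.47 ± 0.14). Tnfrsf12a, the receptor Fn14 for the cytokine TWEAK, averaged 72.8 ± 18.4 in db/db Unx at 35 weeks and 39.1 ± 5.46 at 26 weeks (SD). It averaged 25.1 ± 3.41 in db/m at 35 weeks and 27.5 ± 6.87 at 26 weeks. The libraries of the 2 ages did not overlap in db/db Unx and overlapped in db/m, with an interaction of 0.97 ± 0.18 (adjusted p = 0.0183).

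**Figure D3:**
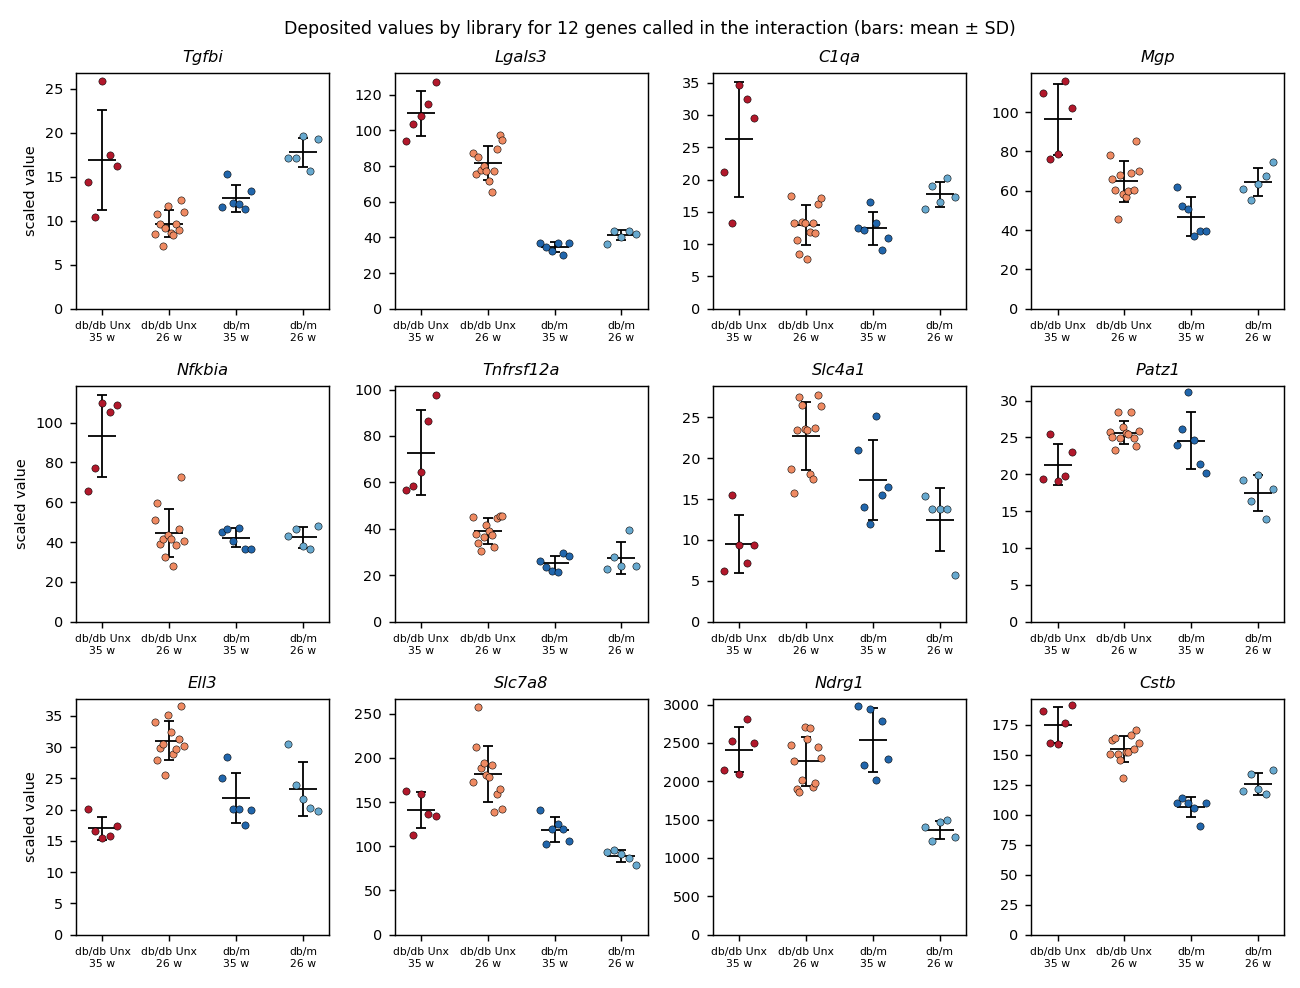
Deposited scaled values of 12 genes called in the interaction, 1 point per library, in db/db Unx at 35 and 26 weeks and db/m intact at 35 and 26 weeks, with the mean and SD of each group. Lgals3 and Tnfrsf12a stand highest in db/db Unx at 35 weeks, Slc4a1 and Ell3 stand lower there than at 26 weeks with no overlap, and for Ndrg1 the ages do not overlap in db/m.

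Of the 27 genes listed for the injured and failed-repair tubule, 4 were called higher in the interaction and none lower, beside 0.393% higher among all genes. These were Lgals3, Anxa3, Il34 and Ccl2. At an unadjusted p below 0.05, 17 were higher and 1 lower, beside 6.57% and 6.02% of all genes, and the list's median was 0.49. The 4 calls became 7 without db/db Unx 35 weeks 02, and 1 without db/db Unx 35 weeks 05 or 06, or db/m 26 weeks 02 or 05. There were 2 without db/db Unx 35 weeks 03, db/m 35 weeks 03, 04 or 05, or db/m 26 weeks 04. Anxa3, a phospholipid-binding annexin, had an interaction of 0.76 ± 0.16 (adjusted p = 0.0259) and averaged 23.8 ± 4.18 in db/db Unx at 35 weeks and 16.2 ± 2.22 at 26 weeks. The best known injury markers rose with age in db/db Unx without a called interaction. Havcr1, which encodes kidney injury molecule 1, read 27.6, 12, 15.6, 41.7 and 94.4 in db/db Unx of 35 weeks and between 2.41 and 24 (median 9.16, n = 12) at 26 weeks. In db/m it read between 1.55 and 5.31 (median 2.86, n = 6) at 35 weeks and 2.33, 3.64, 2.22, 1.89 and 4.37 at 26 weeks. Its interaction of 1.66 ± 0.67 was as large as that of called genes but its spread was wide (adjusted p = 0.282). The values were 1.11 ± 0.39 for Lcn2, neutrophil gelatinase-associated lipocalin (adjusted p = 0.194), 1.43 ± 0.41 for Vcam1, a leukocyte adhesion molecule (0.0974), and 0.71 ± 0.21 for Spp1, osteopontin (0.114).

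Actin-binding and membrane-trafficking genes were also among those called, chosen for description after their values were seen. The thymosins Tmsb10 and Tmsb4x, which hold actin monomers, had interactions of 0.95 ± 0.21 and 0.48 ± 0.12. Rtn4, a reticulon that shapes the endoplasmic reticulum, had 0.77 ± 0.16, the annexin Anxa5 had 0.41 ± 0.09, and Rras, a small GTPase, had 0.63 ± 0.13. All 5 rose with age in db/db Unx, with adjusted interaction p between 0.0209 and 0.0457. The db/m libraries of Rras did not overlap between the ages. They lay between 18.8 and 21.7 (median 20.3, n = 6) at 35 weeks and read 22.7, 26.8, 24.1, 24.2 and 25.4 at 26 weeks.

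The macrophage markers C1qa and Aif1 rose with age in db/db Unx. C1qa encodes a chain of C1q, which starts the classical complement pathway and is made mainly by macrophages. In the db/db Unx kidneys C1qa read 21.2, 13.3, 34.6, 32.5 and 29.6 at 35 weeks and between 7.66 and 17.5 (median 13.3, n = 12) at 26 weeks. In the db/m kidneys it read between 9.07 and 16.5 (median 12.4, n = 6) at 35 weeks and 15.5, 19.1, 16.6, 20.3 and 17.2 at 26 weeks. Replicate 02 of db/db Unx at 35 weeks lay within the range of 26 weeks, and the other 4 libraries lay above it. The disease effect was 0.96 ± 0.19 at 35 weeks (adjusted p = 0.00017) and -0.46 ± 0.17 at 26 weeks (adjusted p = 0.0332), and the interaction was 1.42 ± 0.26 (adjusted p = 0.01). Aif1, a calcium-binding protein that marks macrophages, read 4.83, 1.15, 11.5, 3.95 and 3.86 in db/db Unx of 35 weeks and between 0.651 and 3.3 (median 1.97, n = 12) at 26 weeks. It read between 1.6 and 4.33 (median 2.42, n = 6) in db/m at 35 weeks and 4.48, 4.76, 5.02, 6.12 and 4.74 at 26 weeks, and the db/m ages did not overlap although that change did not pass the test (adjusted p = 0.109). Its interaction was 1.58 ± 0.35 (adjusted p = 0.0334), and its disease effect was 0.49 ± 0.27 at 35 weeks (adjusted p = 0.166) and -1.09 ± 0.23 at 26 weeks (adjusted p = 0.000297). Without db/db Unx 35 weeks replicate 03 the interaction was 1.26 and Aif1 was not called.

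Of 20 macrophage and monocyte markers tested, 2 were called higher (C1qa and Aif1) and none lower, beside 0.393% higher among all genes, and 14 were higher and none lower at an unadjusted p below 0.05, beside 6.57% and 6.02%. Their median interaction was 0.85. Their summed level ran from 170.1 to 682 (median 555) in db/db Unx at 35 weeks and from 131 to 251 (median 206) at 26 weeks. It ran from 162 to 253 (median 189.9) in db/m at 35 weeks and from 188 to 264 (median 199) at 26 weeks. Replicate 02 of db/db Unx at 35 weeks held the lowest sum of its group. In whole kidney RNA, fewer or more cells of a type and less or more RNA per cell cannot be told apart. Without db/db Unx 35 weeks replicate 03, 8 of the 20 markers were higher at an unadjusted p below 0.05 and the median was 0.72, and without replicate 06 they were 9 with a median of 0.71. Without replicate 02 they were 17 with a median of 1.19, and 9 were called. With replicates 01 and 02 alone kept, none was called, 2 of 19 tested were higher and 1 lower at an unadjusted p below 0.05, and the median was 0.095. The number called was 5 without db/db Unx 35 weeks 01 and 4 without db/db Unx 26 weeks 01. It was 1 without db/db Unx 35 weeks 03 or 05, db/m 35 weeks 02 or 03, or db/m 26 weeks 02, 04 or 05. Of the other complement genes in a list of 17, none was called besides C1qa (0.393% called higher among all genes). In all, 7 were higher at an unadjusted p below 0.05 (6.57% of all genes). C1qb and C1qc, the partner chains, had interactions of 1.15 ± 0.29 (adjusted p = 0.0636) and 1.20 ± 0.32 (0.0716). C3, the central component of complement, had 0.50 ± 0.31 (0.549) although it differed between the strains by 4.47 ± 0.24 at 35 weeks and 3.98 ± 0.21 at 26 weeks.

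Further genes of leukocyte signalling were called, chosen for description after their values were seen. Syk, a kinase of immune receptors, had an interaction of 1.42 ± 0.34, and Fyb, an adaptor protein of leukocytes, had 1.09 ± 0.25. Prkcb, a protein kinase C isoform, had 1.25 ± 0.29, Pld4, a lysosomal enzyme of myeloid cells, had 1.39 ± 0.28, and Klrk1, the NKG2D receptor of natural killer and T cells, had 1.24 ± 0.30. Their adjusted p lay between 0.0209 and 0.0424, and Klrk1 was close to the filter. It read 1.32, 0.278, 1.93, 1.33 and 0.984 in the 35-week db/db Unx libraries and between 0 and 0.764 (median 0.188, n = 12) at 26 weeks, against between 0.0751 and 1.08 (median 0.683, n = 6) in db/m at 35 weeks and 1.49, 1.78, 1.18, 1.68 and 0.536 at 26 weeks. No marker of the T and NK cell list passed the test among the 6 tested, the highest value of any of the list's 14 markers in any library was 4.44 (Lck), and the median of Cd4 was 0 in 1 or more groups. Among 4 tested markers of B and plasma cells none was called. Il15, a cytokine that maintains natural killer and memory T cells, rose with age in db/db Unx, with an interaction of 0.81 ± 0.19 (adjusted p = 0.035).

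H2-DMb2 and Ubd had the 2 largest interactions of the 74 genes. H2-DMb2, a chain of the H2-DM complex that loads peptides onto class II molecules, had 3.29 ± 0.75 (adjusted p = 0.0424). H2-DMb2 stood at 54.9, 4.75, 144, 89.5 and 41.7 in db/db Unx libraries at 35 weeks and between 3.42 and 19.8 (median 6.22, n = 12) at 26 weeks. For db/m the libraries held between 4.7 and 7.97 (median 6.16, n = 6) at 35 weeks and 8.25, 8.78, 7.7, 32.6 and 7.15 at 26 weeks. Replicate 02 of db/db Unx at 35 weeks stayed within the range of 26 weeks, and replicate 04 of db/m at 26 weeks stood far above the others of its group. Without db/db Unx 35 weeks replicate 03 the interaction was 2.87, and H2-DMb2 was called in 7 of the 28 fits that leave out 1 library. Ubd, a ubiquitin-like modifier induced by interferon gamma and tumour necrosis factor, had 3.06 ± 0.70 (adjusted p = 0.0426). The 5 db/db Unx libraries of 35 weeks gave 23, 3.26, 105, 32.1 and 28.3 for Ubd, and those of 26 weeks lay between 1.4 and 9.3 (median 3.2, n = 12). In db/m they lay between 2.44 and 7.16 (median 3.85, n = 6) at 35 weeks and gave 4.44, 7.41, 4.92, 13.4 and 4.74 at 26 weeks. Replicate 03 carried 105 against at most 32.1 in the other libraries, and the interaction without it was 2.55, no longer called. Ubd was called in 7 of the 28 fits that leave out 1 library. For both genes db/db Unx spread most widely at 35 weeks, while the fit takes 1 spread per gene for all 4 groups. Their standard errors and adjusted p may therefore be too small. H2-T23, a nonclassical class I molecule that presents to natural killer receptors, averaged 172 ± 101 in db/db Unx at 35 weeks and 68 ± 9.48 at 26 weeks. It averaged 74.3 ± 7.11 in db/m at 35 weeks and 85.6 ± 13 at 26 weeks, and its interaction was 1.36 ± 0.28 (adjusted p = 0.0334), or 1.07 without replicate 03. Genes of the H2 and Gm8909 group have near-identical copies, and the counting rule is not given in the sources used here, so reads may be split between them.

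All 13 listed genes of class I presentation had a positive interaction at an unadjusted p below 0.05, with a median of 1.77, but only H2-T23 was called (6.57% and 0.393% of all genes). All 8 listed genes of class II presentation were higher at that p too, with a median of 2.14, and none was called at an adjusted p below 0.05. H2-DMb2, described above and called, is not on that list. Psmb8, an immunoproteasome subunit, had 2.69 ± 0.64 (adjusted p = 0.0514), and B2m, the light chain of class I, had 1.85 ± 0.46 (0.0636). Cd74, the invariant chain of class II, read 978, 244, 3219, 2398 and 1355 in db/db Unx of 35 weeks and between 218 and 822 (median 309.6, n = 12) at 26 weeks. In db/m it read between 273 and 383 (median 338, n = 6) at 35 weeks and 342, 400.2, 410.0, 1479 and 348 at 26 weeks. Its interaction was 2.35 ± 0.64 (adjusted p = 0.0889), and the spread within db/db Unx at 35 weeks was more than 10-fold between its lowest and highest library. The proteasome activator genes Psme1 and Psme2 were called, with 0.71 ± 0.16 (adjusted p = 0.035) and 0.88 ± 0.19 (0.0334). Without db/db Unx 35 weeks replicate 03 they had 0.56 and 0.65, and Psme2 stayed called while Psme1 did not. With db/db Unx 35 weeks replicate 03 and db/m 26 weeks replicate 04 both left out, 11 of 13 class I genes and 8 of 8 class II genes were still higher at an unadjusted p below 0.05, with medians of 1.10 and 1.59. With db/db Unx 35 weeks replicate 02 left out alone, 11 of 13 class I genes (median 2.13) and 8 of 8 class II genes (median 2.70) were called. With replicates 01 and 02 alone kept in that group, none was called, and 4 of 13 (median 0.62) and 2 of 8 (median 1.08) were higher at an unadjusted p below 0.05. Leaving out db/db Unx 26 weeks 01 gave 7 calls in class I and 3 in class II. Class I held 4 calls without db/db Unx 35 weeks 01, 2 without db/db Unx 35 weeks 03 or 26 weeks 12, and 0 without db/db Unx 35 weeks 05, db/m 35 weeks 03, or db/m 26 weeks 02 or 04.

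**Figure D4:**
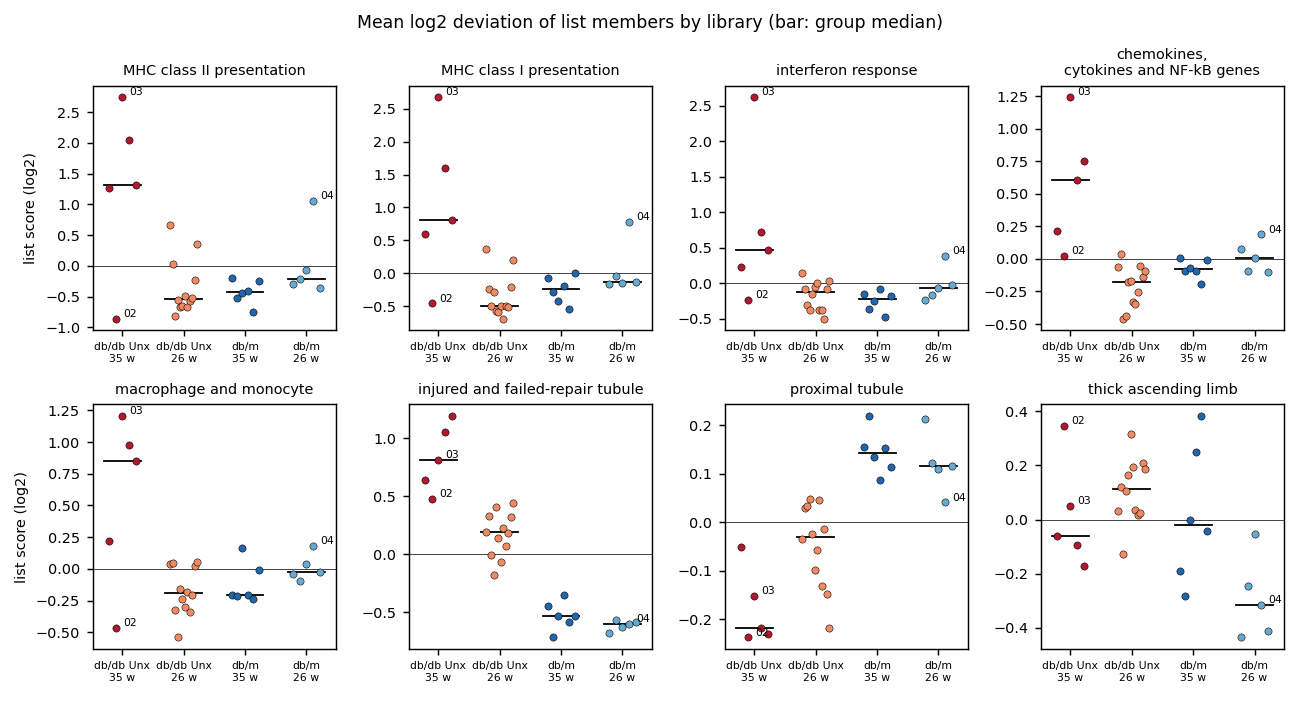
Mean over list members of the log2 value minus the gene's mean over all libraries, 1 point per library, with group medians as bars, for 8 lists; replicates 02 and 03 of db/db Unx at 35 weeks and 04 of db/m at 26 weeks are numbered. For MHC class II, db/db Unx at 35 weeks spans -0.86 (replicate 02) to 2.75 (replicate 03), and replicate 04 of db/m at 26 weeks lies at 1.06 while the rest of its group lie at or below -0.06.

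The interferon response list held 1 called gene of 29, Irf7, which encodes a transcription factor of the type I interferon response. In the db/db Unx kidneys Irf7 read 9.93, 6.15, 44.6, 15.3 and 10.8 at 35 weeks and between 3.83 and 8.39 (median 5.61, n = 12) at 26 weeks. In the db/m kidneys it read between 4.11 and 8.03 (median 5.87, n = 6) at 35 weeks and 6.41, 10.0, 10.9, 12.5 and 7.51 at 26 weeks. Its interaction was 1.76 ± 0.37 (adjusted p = 0.0273), and 1.35 without replicate 03, whose value was 44.6 against at most 15.3 in the other db/db Unx libraries. At an unadjusted p below 0.05, 20 of the 29 were higher and none lower, with a median of 1.06, beside 6.57% higher among all genes (0.393% called). Without replicate 03 these were 16 with a median of 0.64 and 2 calls, and without replicate 02 they were 25 with 6 calls. No gene of the list was called without db/db Unx 35 weeks 05, or db/m 26 weeks 02 or 04. Gbp2, an interferon-induced GTPase, had 2.82 ± 0.86 (adjusted p = 0.127). Cxcl10, a chemokine induced by interferon gamma, had 1.64 ± 0.55 (0.17), with 212 in replicate 03 against 19.0 to 30.1 in the other db/db Unx libraries of 35 weeks, and its interaction was 1.05 without that replicate.

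NF-kB signalling, cytokines and chemokines formed the next group. Nfkbia encodes the inhibitor IkB-alpha, which holds NF-kB in the cytoplasm and is itself an NF-kB target. Nfkbia stood at 65.4, 77.4, 109.8, 105 and 109 in db/db Unx libraries at 35 weeks and between 28.1 and 72.9 (median 41.7, n = 12) at 26 weeks. For db/m the libraries held between 36.7 and 47.2 (median 42.7, n = 6) at 35 weeks and 43.3, 46.6, 37.8, 36.3 and 48.2 at 26 weeks. The age difference was 1.06 ± 0.15 in db/db Unx (adjusted p = 9.61e-05) and -0.01 ± 0.17 in db/m (adjusted p = 0.981). The strains did not overlap at 35 weeks (disease effect 1.11 ± 0.17) and overlapped at 26 weeks (0.04 ± 0.15), and the interaction was 1.07 ± 0.23 (adjusted p = 0.0334). The chemokine Cxcl16 averaged 83 ± 26.8 in db/db Unx at 35 weeks and 40.5 ± 5.7 at 26 weeks, with an interaction of 0.96 ± 0.22 (adjusted p = 0.0401). Ccl2, the main chemoattractant of monocytes, read 3.78, 1.47, 15.1, 4.33 and 4.92 in db/db Unx of 35 weeks and between 0.453 and 2.41 (median 1.65, n = 12) at 26 weeks, with an interaction of 1.5 ± 0.37 (0.0475), called in 6 of 28 fits that leave out 1 library. Without db/db Unx 35 weeks replicate 03, Ccl2 had 1.12 and was not called, nor were Nfkbia and Cxcl16. Il34 encodes a ligand of the macrophage growth factor receptor CSF1R. It averaged 14.3 ± 2.24 in db/db Unx at 35 weeks and 8.5 ± 2.6 at 26 weeks, below the 35.7 ± 4.31 of db/m at 35 weeks and 41.8 ± 4.00 at 26 weeks. Its interaction of 0.95 ± 0.21 (adjusted p = 0.0334) corresponds to a smaller deficit at 35 weeks. Of the 20 genes tested in the list of chemokines, cytokines and NF-kB genes, these 4 were called higher and none lower (0.393% higher among all genes), 14 were higher at an unadjusted p below 0.05 (6.57% of all genes), and the median was 0.87. The 4 calls became 7 without db/db Unx 35 weeks 02, and 0 without db/db Unx 35 weeks 03, 05 or 06, db/m 35 weeks 03 or 05, or db/m 26 weeks 02 or 05. They became 1 without db/m 26 weeks 04, and 2 without db/db Unx 26 weeks 03, 06, 07, 08 or 09, db/m 35 weeks 01, 02 or 04, or db/m 26 weeks 03.

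Genes of the acute-phase and immediate early responses followed. Cebpd, a transcription factor of the acute-phase response, averaged 30.4 ± 14.8 in db/db Unx at 35 weeks and 10.8 ± 3.21 at 26 weeks, against 7.76 ± 1.63 in db/m at 35 weeks and 8.29 ± 1.63 at 26 weeks. Its interaction was 1.39 ± 0.34 (adjusted p = 0.0475), called in 8 of 28 fits that leave out 1 library. Il6ra, the receptor of interleukin-6, had 0.99 ± 0.23 (adjusted p = 0.035) and averaged 4.23 ± 1.04 in db/db Unx and 1.67 ± 0.35 in db/m at 35 weeks, while the strains were at 2.6 ± 0.613 in db/db Unx and 2.68 ± 0.668 in db/m at 26 weeks. Of 21 STAT3 and acute-phase genes tested these 2 were called (0.393% of all genes), and 11 were higher at an unadjusted p below 0.05 (6.57% of all genes). Stat3 itself had 0.42 ± 0.12 (adjusted p = 0.0929). Egr1, an early-response transcription factor, averaged 10.3 ± 3.26 in db/db Unx at 35 weeks and 4.69 ± 1.26 at 26 weeks, and the libraries of those ages did not overlap. Its interaction was 1.22 ± 0.29 (adjusted p = 0.0392), the only call among 18 immediate early and AP-1 genes tested (0.393% called higher among all genes). At an unadjusted p below 0.05, 7 of the 18 were higher and none lower, beside 6.57% and 6.02% of all genes. Their median interaction was 0.51.

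Letters of binding motifs were searched in RefSeq promoters (GRCm38.p6, 250 bases before to 50 after the start, both strands), which matched 35 of the 53 higher and 14 of the 21 lower genes. The interferon-stimulated response element, GAAA and GAAA with any 2 bases between them, stood in the window of 4 higher genes (Aif1, H2-T23, Psme1 and Tgfbi) and of no lower gene, and in 3.44% of all 32851 promoters. The NF-kB letters, GGG followed after any 2 bases by TTTCC or TTCC, forms that can overlap, stood in 5 higher genes (Bcl2l1, Nfkbia, Rras, Txn1 and Ubd) and 2 lower ones, and in 7.00% of all promoters. The STAT letters TTCNNNGAA were found in 2 higher and 3 lower genes (8.30% of all), and the AP-1 letters TGANTCA in 3 higher and 1 lower gene (7.81% of all). A gene was counted if any of its promoters matched, while the percentages are of single promoters, so counts and percentages are not like for like. The 250 bases before the start are shown for 4 of these genes, with the match in capitals. They were chosen after their values were seen, as examples of the NF-kB and interferon matches. The window of Irf7 held none of these motifs, and the matches of Aif1 and Psme1 are not shown. A match is a run of letters and no evidence of binding.
Nfkbia, chr12:55492648-55492897, - strand: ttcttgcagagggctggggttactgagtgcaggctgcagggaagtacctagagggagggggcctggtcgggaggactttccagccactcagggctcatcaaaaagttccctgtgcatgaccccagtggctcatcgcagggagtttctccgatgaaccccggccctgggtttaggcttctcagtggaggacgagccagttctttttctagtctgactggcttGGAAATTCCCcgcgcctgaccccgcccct
Ubd, chr17:37193642-37193891, + strand: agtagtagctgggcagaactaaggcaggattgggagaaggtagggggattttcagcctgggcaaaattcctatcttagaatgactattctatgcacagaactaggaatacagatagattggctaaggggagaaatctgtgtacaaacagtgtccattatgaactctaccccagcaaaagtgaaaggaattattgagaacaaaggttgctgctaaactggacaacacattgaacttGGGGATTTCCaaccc
H2-T23, chr17:36032702-36032951, - strand: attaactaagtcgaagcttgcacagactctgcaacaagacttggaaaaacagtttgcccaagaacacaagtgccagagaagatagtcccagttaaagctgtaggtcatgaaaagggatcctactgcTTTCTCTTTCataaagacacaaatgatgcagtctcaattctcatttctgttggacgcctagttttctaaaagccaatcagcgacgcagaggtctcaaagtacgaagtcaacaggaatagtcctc
Tgfbi, chr13:56609336-56609585, + strand: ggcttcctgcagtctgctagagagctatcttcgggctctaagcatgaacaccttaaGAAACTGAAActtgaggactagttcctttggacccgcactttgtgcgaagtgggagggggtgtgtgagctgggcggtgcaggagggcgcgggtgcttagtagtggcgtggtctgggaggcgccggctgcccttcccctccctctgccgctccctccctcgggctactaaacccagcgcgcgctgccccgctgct
The NF-kB match begins 29 bases before the start in Nfkbia and 15 bases before it in Ubd, and the interferon match begins 124 bases before it in H2-T23 and 194 bases before it in Tgfbi.

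Nkx6-2 and Tshr were low in db/m; they were chosen for description after their values were seen. Nkx6-2 was below 1 in every db/m library, and both genes passed the filter only through db/db Unx, the strain in which they were high, so their values are a description. Nkx6-2, a homeobox transcription factor, read 10.4, 9.05, 10.4, 21.2 and 8.96 in db/db Unx of 35 weeks and between 1.59 and 7.23 (median 3.31, n = 12) at 26 weeks. It lay between 0.0383 and 0.423 (median 0.114, n = 6) in db/m at 35 weeks and read 0.0892, 0.0901, 0.248, 0.601 and 0.172 at 26 weeks. Tshr, the thyrotropin receptor, read 8.65, 12.8, 10.0, 11.1 and 9.88 in db/db Unx of 35 weeks and between 0.535 and 6.03 (median 2.62, n = 12) at 26 weeks, and between 0 and 1.18 (median 0.683, n = 6) in db/m at 35 weeks and 0.264, 0.953, 0.381, 1.01 and 1.24 at 26 weeks. Both stood above every db/m library at 35 weeks, and the db/db Unx ages did not overlap for either. Their interactions were 1.53 ± 0.32 and 1.70 ± 0.39 on the log2(value + 1) scale, which understates changes of low genes.

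For some higher genes the db/m kidneys moved as well or alone. Ly6a, a surface protein also called Sca-1, read 634, 513, 1118, 793 and 578 in db/db Unx of 35 weeks and between 461 and 593 (median 517, n = 12) at 26 weeks. In db/m it read between 633 and 846 (median 715, n = 6) at 35 weeks and 1011, 936, 898, 1488 and 1077 at 26 weeks, with no overlap between the ages. The age difference was 0.43 ± 0.13 in db/db Unx and -0.56 ± 0.14 in db/m, both called. The disease effect was -0.04 ± 0.14 at 35 weeks and -1.03 ± 0.13 at 26 weeks, and the interaction was 0.99 ± 0.19 (adjusted p = 0.0238). Without db/db Unx 35 weeks replicate 03 the interaction was 0.82, still called. Ly6a and Ly6e belong to a family of similar genes between which reads may be split. Ly6e had 1.13 ± 0.22 (adjusted p = 0.024), with a disease effect of -0.15 ± 0.17 at 35 weeks and -1.29 ± 0.15 at 26 weeks. Cstb, cystatin B, an inhibitor of cathepsins, changed by 0.17 ± 0.06 with age in db/db Unx (adjusted p = 0.0521) and by -0.24 ± 0.07 in db/m (adjusted p = 0.0201), with an interaction of 0.41 ± 0.09 (adjusted p = 0.0259). Txn1, thioredoxin, and Atpif1, the inhibitor of ATP synthase, changed by 0.03 ± 0.05 and -0.06 ± 0.06 in db/db Unx, not called, and fell in db/m, with -0.31 ± 0.06 and -0.42 ± 0.07. Plekhf1, an adaptor protein of lysosomes and endosomes, rose in db/db Unx (0.72 ± 0.13), and its db/m difference of -0.21 ± 0.14 was not called. Its disease effect was 0.42 ± 0.14 at 35 weeks and -0.52 ± 0.13 at 26 weeks, both called.

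Slc4a1 had the largest negative interaction of the 21 lower genes. It encodes the chloride-bicarbonate exchanger AE1, found in acid-secreting intercalated cells and in red cells. In the db/db Unx kidneys Slc4a1 read 6.22, 15.4, 9.36, 7.16 and 9.4 at 35 weeks and between 15.8 and 27.7 (median 23.5, n = 12) at 26 weeks. In the db/m kidneys it read between 11.9 and 25.2 (median 16, n = 6) at 35 weeks and 15.3, 13.7, 13.8, 13.8 and 5.69 at 26 weeks. In db/db Unx the ages did not overlap, and at 26 weeks every db/db Unx library lay above every db/m library. The disease effect was -0.82 ± 0.21 at 35 weeks (adjusted p = 0.00292) and 0.86 ± 0.19 at 26 weeks (adjusted p = 0.000472), and the interaction was -1.68 ± 0.28 (adjusted p = 0.00711). The 6 erythroid markers tested had a median interaction of 1.00 with none called, and their summed level had a median of 737 in db/db Unx at 35 weeks and 544 at 26 weeks, and 529 in db/m at 35 weeks and 1221 at 26 weeks. Of the 11 intercalated cell markers Slc4a1 was the only call, beside 0.156% called lower among all genes. Atp6v1b1, a subunit of the proton pump of these cells, had -0.35 ± 0.17 (adjusted p = 0.395), and Foxi1, their defining transcription factor, had -0.29 ± 0.19 (0.562).

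Of the 22 proximal tubule markers, 3 were called lower and none higher, beside 0.156% lower among all genes, and 8 were lower and 1 higher at an unadjusted p below 0.05, beside 6.02% and 6.57%. The median was -0.15. None was called without db/db Unx 35 weeks 05. There was 1 call without db/db Unx 35 weeks 06, db/db Unx 26 weeks 05, 06, 07 or 08, db/m 35 weeks 01, 02 or 04, or db/m 26 weeks 02, 03, 04 or 05. At an unadjusted p below 0.05, 4 were lower without db/m 26 weeks 04, and 5 without db/db Unx 35 weeks 02, 03, 05 or 06, db/db Unx 26 weeks 02, or db/m 35 weeks 02 or 03. Slc7a8, the basolateral neutral amino acid exchanger LAT2, had an interaction of -0.76 ± 0.16 (adjusted p = 0.024). The 5 db/db Unx libraries of 35 weeks gave 162, 112, 159, 136 and 135 for Slc7a8, and those of 26 weeks lay between 139 and 258 (median 179.6, n = 12). In db/m they lay between 102 and 141 (median 119, n = 6) at 35 weeks and gave 93.5, 95.9, 91.5, 86.3 and 79.2 at 26 weeks. Here db/db Unx fell and db/m rose, and the disease effect was 0.24 ± 0.12 at 35 weeks (adjusted p = 0.117) and 1.00 ± 0.10 at 26 weeks (adjusted p = 3.5e-09). Ass1, argininosuccinate synthase, with which the proximal tubule makes arginine, averaged 439 ± 59.1 in db/db Unx at 35 weeks and 619.8 ± 48.7 at 26 weeks, against 834 ± 56.3 in db/m at 35 weeks and 884 ± 77.3 at 26 weeks. Its disease effect was -0.93 ± 0.07 at 35 weeks and -0.51 ± 0.07 at 26 weeks, and its interaction -0.42 ± 0.10 (adjusted p = 0.0392), called in 14 of 28 fits that leave out 1 library. Slc34a1, the sodium-phosphate cotransporter NaPi-IIa, the remaining call of the list, had -0.29 ± 0.07 (adjusted p = 0.0424), called in 9 of those 28 fits. Lrp2, the endocytic receptor megalin, had -0.18 ± 0.07 (0.276). The summed level of the markers ran from 22484 to 25369 in db/db Unx at 35 weeks and from 24152 to 28388 at 26 weeks, below the 31348 to 35785 of db/m at 35 weeks and the 32951 to 37235 at 26 weeks.

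Other lower genes differed in which strain moved. Ell3, an elongation factor of RNA polymerase II, fell in db/db Unx. Ell3 stood at 20.1, 16.5, 15.4, 15.7 and 17.4 in db/db Unx libraries at 35 weeks and between 25.5 and 36.6 (median 30.3, n = 12) at 26 weeks. For db/m the libraries held between 17.6 and 28.4 (median 20.1, n = 6) at 35 weeks and 30.4, 23.9, 21.7, 20.3 and 19.8 at 26 weeks. The db/db Unx ages did not overlap, the db/m change was -0.08 ± 0.11, and the interaction was -0.74 ± 0.15 (adjusted p = 0.0209). Susd2, a membrane protein with a sushi domain, also fell in db/db Unx, which averaged 133 ± 7.05 at 35 weeks and 177 ± 17.1 at 26 weeks, against 336 ± 35.1 in db/m at 35 weeks and 325 ± 22.9 at 26 weeks. Fcamr, a receptor for the Fc parts of IgA and IgM, averaged 6.84 ± 1.7 in db/db Unx at 35 weeks and 11.5 ± 2.7 at 26 weeks, against 36.4 ± 3.97 in db/m at 35 weeks and 30.3 ± 9.7 at 26 weeks. The interactions were -0.45 ± 0.09 (adjusted p = 0.0238) and -0.99 ± 0.24 (0.0428), in both a deficit that was larger at 35 weeks. Smim5, a small membrane protein, fell in both strains, with an age difference of -1.05 ± 0.09 in db/db Unx and -0.42 ± 0.10 in db/m, and the libraries of the ages did not overlap in either.

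In db/m, by contrast, Ndrg1, a gene that responds to hypoxia and other stress, rose. In the db/db Unx kidneys Ndrg1 read 2140.3, 2526, 2092, 2807 and 2498 at 35 weeks and between 1861 and 2707 (median 2282, n = 12) at 26 weeks. In the db/m kidneys it read between 2020.1 and 2984 (median 2537, n = 6) at 35 weeks and 1397, 1222, 1462, 1493 and 1267 at 26 weeks. The 3 groups other than db/m at 26 weeks overlapped, and that group lay below them. Its disease effect was -0.07 ± 0.12 at 35 weeks and 0.72 ± 0.10 at 26 weeks, with an interaction of -0.78 ± 0.15 (adjusted p = 0.0238). Patz1, a zinc finger transcription factor, fell in db/db Unx (-0.26 ± 0.09) and rose in db/m (0.46 ± 0.10), with an interaction of -0.73 ± 0.13 (adjusted p = 0.01). It averaged 21.3 ± 2.81 in db/db Unx and 24.6 ± 3.89 in db/m at 35 weeks, and 25.7 ± 1.54 in db/db Unx and 17.5 ± 2.42 in db/m at 26 weeks. Larp4b, an RNA-binding protein, and Kti12 changed by -0.11 ± 0.07 and -0.21 ± 0.08 in db/db Unx, not called, and rose by 0.38 ± 0.08 and 0.28 ± 0.09 in db/m. Their interactions were -0.49 ± 0.10 (adjusted p = 0.0238) and -0.48 ± 0.12 (0.0424).

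Across the 37 lists, 18 of the 74 genes belonged to a list, of 573 distinct listed genes tested, beside 0.548% called among all genes. Apart from the lists described above, 1 of 31 extracellular matrix genes was called (Tgfbi), beside 0.393% called higher among all genes. At an unadjusted p below 0.05, 7 were higher and 1 lower, beside 6.57% and 6.02% of all genes, and the list's median was 0.31. No member of the oxidative phosphorylation (34 tested), fatty acid oxidation and PPAR-alpha (33), glycolysis (15), glucose handling (16), lipid synthesis (25), cell cycle (19), NRF2 (17), p53 and senescence (19), endoplasmic reticulum stress (21), circadian clock (19) or renin-angiotensin (9) lists was called, and their medians lay between -0.08 and 0.23. With age, 19 of the 34 oxidative phosphorylation genes fell in db/db Unx (6.14% of all genes) and 21 of the 34 in db/m (4.68%), and the interaction median was 0.04. Cyp4a14, a fatty acid hydroxylase and PPAR-alpha target, differed between the strains by 6.72 ± 0.32 at 35 weeks and 6.20 ± 0.29 at 26 weeks, with an interaction of 0.52 ± 0.43 (adjusted p = 0.681).

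**Figure D5:**
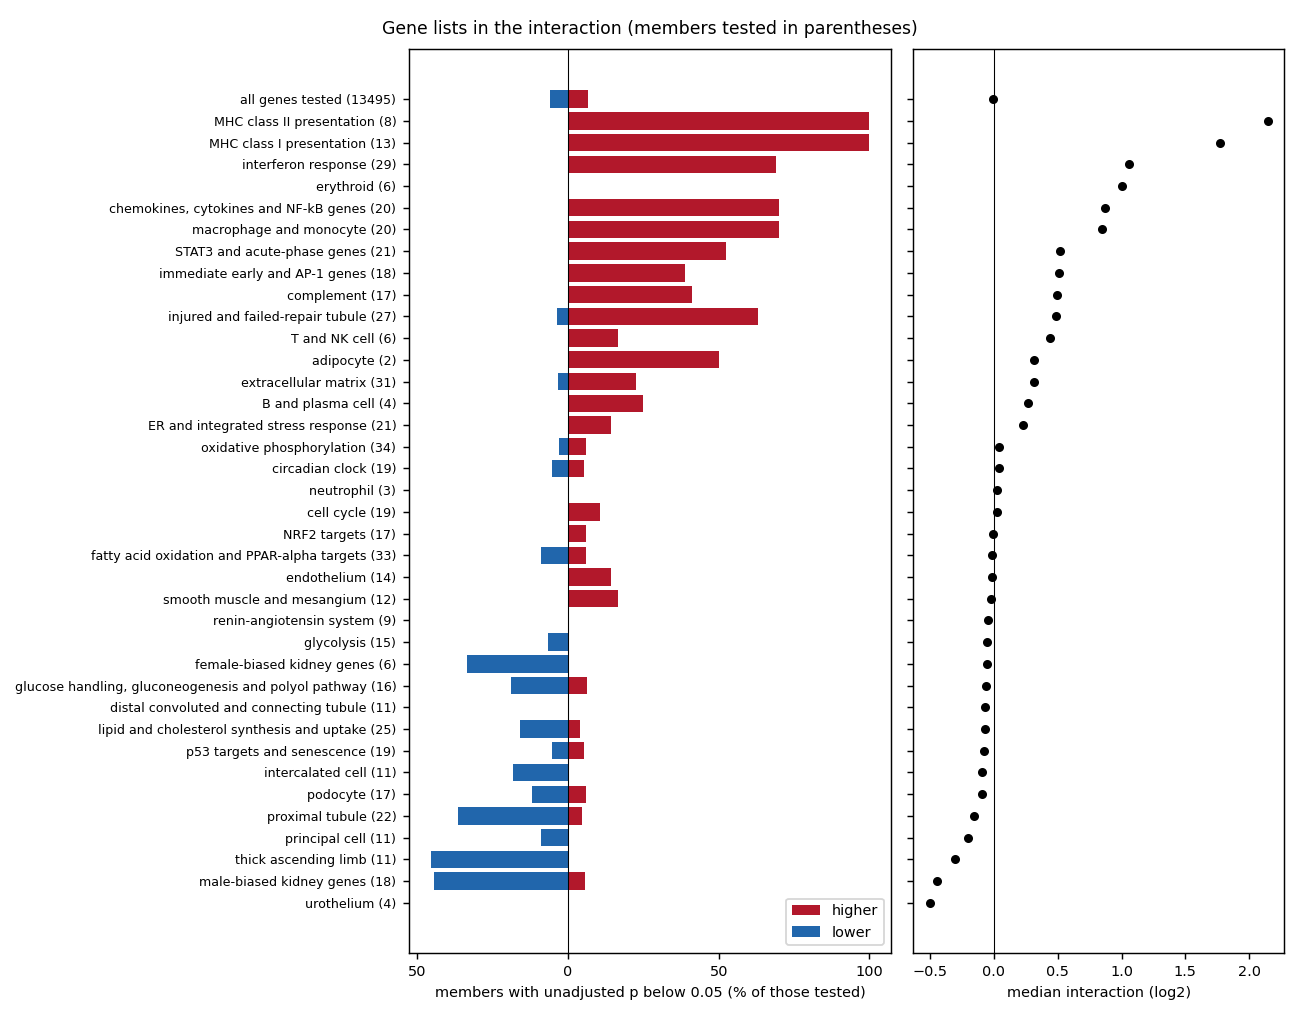
Left, share of the tested members of each list with an unadjusted interaction p below 0.05, higher to the right and lower to the left; right, median interaction of the list (log2). All genes stand at the top with 6.57% higher and 6.02% lower; both MHC lists reach 100% higher, and the male-biased, female-biased, thick ascending limb and proximal tubule lists, among others, lean lower.

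The male-biased kidney genes had a median interaction of -0.45 and no call among 18 tested. At an unadjusted p below 0.05, 8 were lower and 1 higher, beside 6.02% and 6.57% of all genes. Of 6 female-biased genes tested, 2 were lower and 0 higher at that p, with a median of -0.055 and 0 calls. Kap, the androgen-regulated kidney protein, had -1.07 ± 0.41 (adjusted p = 0.26), and Slco1a1, an organic anion transporter, had -2.36 ± 0.82 (0.191). Slco1a1 read 5.75, 2.5, 0.604, 0.737 and 1.46 in db/db Unx of 35 weeks and between 1.95 and 50.9 (median 22.2, n = 12) at 26 weeks, below every db/m library, which lay between 398 and 531 (median 492, n = 6) at 35 weeks and read 702, 561, 457, 724 and 734 at 26 weeks. The 11 thick ascending limb markers had a median of -0.30, with 5 lower at an unadjusted p below 0.05 (6.02% of all genes) and none called. Slc12a1, the sodium-potassium-chloride cotransporter NKCC2, had -0.80 ± 0.25 (adjusted p = 0.132). For Slc12a1 the age difference was -0.13 ± 0.16 in db/db Unx and 0.67 ± 0.19 in db/m. Umod, uromodulin, had -0.11 ± 0.14 (0.828), and Nphs1, nephrin of the podocyte slit diaphragm, had 0.29 ± 0.24 (0.688). No podocyte, endothelial, smooth muscle, principal cell, or distal convoluted and connecting tubule marker was called.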

How the data were processed

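RNA from 28 kidneys was sequenced, and the deposited table holds 1 column per library. Per the submitters' processing notes the reads were processed with DRAGEN on GRCm38 (mm10). For the counting rule, annotation and scaling method no source used here gives details. The deposited values are a scaled signal per gene, not divided by gene length, with column sums between 896873 and 1018934 and 0 columns of no sample. Depth was estimated from the steps between low values at 21.8 to 30.8 M counts per library. Between 87.3% and 89.7% of low values were within 0.1 of a whole multiple of the step, so whole counts were not recovered and no count test was run. The labelled library kit does not mark strand, so reads of a gene and its antisense partner cannot be told apart.

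Genes were named by GENCODE M21 symbols (14842 of 14845). Values were taken as log2(value + 1), and 13495 genes that reached a value of 1 in 5 or more libraries were tested. One mean per group was fitted to all 28 libraries with limma 3.58.1 in R 4.3.3, with trend and robust moderation, and the interaction and its 4 component contrasts were taken from that fit. All tests were two-sided, adjusted by Benjamini-Hochberg over all genes tested, with a threshold of 0.05 and no fold threshold; "adjusted p" and "called" refer to this test, and ± after a log2 value is its standard error. The fit was first tested on simulated data with independent noise and 1 spread per gene in all groups. It recovered 79% of 100 genes changed by 1 and 96% of 100 changed by 2 on the log2 scale, with 5.41% of calls false. The simulation had no wider group and no libraries that deviate together, so it is no check of the fit under those conditions. Libraries of a group count as replicates, and p-values measure only the spread between them, which may be technical in part.

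The members, the 37 gene lists and the tests were chosen with earlier results of these data known. Named genes are the 8 with the largest change and the 6 with the smallest adjusted p per direction among called genes with a group mean of at least 22.8, up to 2 called members per list, 3 genes per class of movement, up to 6 genes with called effects of opposite sign, and 15 genes named whatever their call. Alternatives were other pseudocounts, filters, scalings and moderation, weights per group, the replicate number as a block, and leaving libraries out.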

Additional observations from a re-analysis of the deposited data

Results flagged for a closer look

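Single libraries stood far from the rest of their group in 13 of 141 groups of values examined by Dixon's test, which chance alone flags in about 1 in 20. The 141 do not cover all 4 groups of the 47 named genes, and no flag fell in db/db Unx at 26 weeks. The absence of flags in that group is therefore no result. In db/db Unx at 35 weeks, replicate 03 was the highest library for Ubd (105), Irf7 (44.6) and Cxcl10 (212). In db/m at 35 weeks, replicate 04 was highest for Lepr (4.70) and replicate 01 for Vcam1 (17.2), and replicate 05 was lowest for Cstb (90.3) and replicate 02 for Spp1 (675). In db/m at 26 weeks, replicate 04 was highest for H2-DMb2 (32.6), H2-T23 (108) and Cd74 (1479) and replicate 01 for Susd2 (365), while replicate 05 was lowest for Slc4a1 (5.69) and replicate 01 for Lcn2 (0.307).

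The disease effect differed between the ages by the interaction test for all 32 called genes that were named by rule. Passing that test was a condition of the choice, so this restates the calls and adds no support. The difference, 35 minus 26 weeks on the log2 scale, was 3.29 for H2-DMb2, 3.06 for Ubd, 1.76 for Irf7, 1.58 for Aif1, 1.42 for C1qa, 1.39 for Cebpd, 1.36 for H2-T23, 1.22 for Egr1, 1.17 for Tgfbi, 1.13 for Ly6e, 1.07 for Nfkbia and 1.03 for Mgp. It was 0.99 for Il6ra and for Ly6a, 0.97 for Tnfrsf12a, 0.95 for Il34, 0.93 for Plekhf1, 0.76 for Anxa3, 0.66 for Lgals3, 0.63 for Rras and 0.41 for Cstb. Among the lower genes it was -1.68 for Slc4a1, -0.99 for Fcamr, -0.78 for Ndrg1, -0.76 for Slc7a8, -0.74 for Ell3, -0.73 for Patz1, -0.63 for Smim5, -0.49 for Larp4b, -0.48 for Kti12, -0.45 for Susd2 and -0.42 for Ass1.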

How the results depend on the processing

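The direction of the 74 genes held in every alternative in which they were tested, and the number called did not. Leaving out 1 library at a time gave 7 to 249 calls (4 to 185 higher, 3 to 64 lower). By movement these were 3 to 199 genes in db/db Unx only, 1 to 31 in db/m only, 2 to 10 in both and 0 to 9 in neither. By disease effect they were 1 to 86 larger at 35 weeks, 0 to 14 smaller and 6 to 149 of opposite sign, and 4 to 68 belonged to a list. Of the 74 genes, all 74 were among the 249 called without db/db Unx 35 weeks replicate 02.

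A pseudocount of 0.1 gave 54 calls, with 35 higher and 36 that moved in db/db Unx only. Genes that moved in neither strain numbered 2 with no filter, 3 with quantile normalization (85 calls) and 1 with median-of-ratios scaling (73 calls). Without trend and robust moderation there were 41 calls (32 higher, 9 lower; 26 in db/db Unx only; 11 larger and 5 smaller at 35 weeks; 11 in a list), 38 of them shared with the 74. With only replicates 01 and 02 kept in db/db Unx at 35 weeks, 0 genes were called by limma in any class, and 1166 had an unadjusted p below 0.05. With db/db Unx 35 weeks 03 and db/m 26 weeks 04 left out together, an alternative chosen after seeing the data, 18 were called (14 higher, 4 lower), 16 of them shared. These were 11 in db/db Unx only, 3 in db/m only and 4 in both, with 6 larger, 1 smaller and 11 of opposite sign, and 7 in a list. These last 2 settings fit fewer libraries, and for the other shifts the cause was not tested.

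Libraries with the same replicate number did not deviate together (correlations between -0.135 and 0.084), so the numbers were not taken as pairs. With the replicate number as a block, the replicate block fit called 29 genes (14 higher, 15 lower), 19 of them shared. They were 20 in db/db Unx only, 6 in db/m only and 3 in both, with 8 larger and 15 of opposite sign, and 9 in a list. Over the named genes and all alternatives, 1548 values kept their side of the threshold, 277 fell short of it and 5 passed it. None changed sign where the gene was called in the main fit or in the alternative, and other sign changes were not counted. The 1548 include named genes not called in the main fit, and the 277 can come only from the 32 called ones. The 5 libraries of db/db Unx at 35 weeks and of db/m at 26 weeks limit precision, with a median standard error of the interaction of 0.17 on the log2 scale.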
